A study of Mus musculus with 6 samples.

Results

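The Hoxa and Hoxb genes examined here were 10 genes of 34573 in a table of read counts from hematopoietic stem cells (HSCs), chosen by name as members of the A and B clusters that HSCs express: Hoxa5, Hoxa7, Hoxa9, Hoxa10, Hoxb2, Hoxb3, Hoxb4, Hoxb5, Hoxb6 and Hoxb8. RNA was sequenced from Rpl22-/- and Rpl22+/+ mice, in 3 libraries per genotype. Per the study's methods, the mice were young adults on the C57BL/6 background, and Rpl22, a protein of the large ribosomal subunit, was lacking in the whole animal rather than in HSCs alone. Cells were sorted from bone marrow as lineage-negative, CD48- and CD150+, the gate that the labels give, and elsewhere the study defines its HSCs as Kit+ and Sca-1+ as well. The labels do not say whether the replicates were separate animals or pools, so the p-values measure only the spread between these libraries, which may be technical.

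Hox genes encode homeodomain transcription factors and lie in clusters in which the order of the genes along the chromosome follows the order in which they are used along the body axis. In blood, genes of the A and B clusters are active in stem and early progenitor cells and are switched down as cells mature. Hoxa9 with its cofactor Meis1 maintains the self-renewal program that MLL fusion proteins hold open in leukemia, and Hoxb4 expands HSCs when it is overexpressed. Since the study set Rpl22 loss beside leukemia driven by the MLL-AF9 fusion, the comparison of genotypes addresses whether these genes differed in level in HSCs without the fusion.

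All 4 Hoxa genes lie on the minus strand of chromosome 6 and all 6 Hoxb genes on the plus strand of chromosome 11 (GRCm38). Within the A cluster, Hoxa5 spans 52201754 to 52204587, Hoxa7 52214491 to 52221854, Hoxa9 52223100 to 52231089 and Hoxa10 52231197 to 52240854. In the B cluster, Hoxb8 starts at 96281905, followed by Hoxb6 at 96292476, Hoxb5 at 96303336, Hoxb4 at 96318267, Hoxb3 at 96323326 and Hoxb2, which ends at 96354012. RefSeq promoter windows of 300 bases, 250 before and 50 after a transcript start, were found for 6 of the 10 genes, in 7 windows because Hoxa10 had a pair of them. Among the 10 genes, the windows of the gene with the highest level, of the B cluster gene with the highest level and of the gene with the lowest level are printed 5′ to 3′ (RefSeq, GRCm38.p6). Capitals mark matches on either strand to CCAAT or to TATAAA, which reads TTTATA when it lies on the other strand.
Hoxa9, chr6:52227321-52227620, minus strand: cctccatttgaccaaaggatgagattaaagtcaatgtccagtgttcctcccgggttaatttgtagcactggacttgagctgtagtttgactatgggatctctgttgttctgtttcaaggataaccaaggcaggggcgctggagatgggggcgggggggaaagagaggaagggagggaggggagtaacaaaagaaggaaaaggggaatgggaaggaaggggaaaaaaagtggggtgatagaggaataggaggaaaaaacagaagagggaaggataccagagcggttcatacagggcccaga
Hoxb4, chr11:96318017-96318316, plus strand: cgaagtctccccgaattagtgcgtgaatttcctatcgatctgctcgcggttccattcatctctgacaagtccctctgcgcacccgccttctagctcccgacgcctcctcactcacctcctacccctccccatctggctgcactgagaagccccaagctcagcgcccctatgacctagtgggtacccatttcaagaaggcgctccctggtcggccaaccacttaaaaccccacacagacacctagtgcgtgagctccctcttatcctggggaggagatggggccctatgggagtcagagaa
Hoxb8, chr11:96281655-96281954, plus strand: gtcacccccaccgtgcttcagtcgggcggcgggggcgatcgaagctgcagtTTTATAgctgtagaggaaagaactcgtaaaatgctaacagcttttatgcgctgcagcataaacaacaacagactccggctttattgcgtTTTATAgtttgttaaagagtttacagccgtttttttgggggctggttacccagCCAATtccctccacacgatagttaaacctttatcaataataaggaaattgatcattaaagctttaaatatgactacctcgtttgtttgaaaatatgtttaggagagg

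The Hoxa9 window held 4 CG dinucleotides, the fewest of the 7, against 14 for Hoxb4 and 13 for Hoxb8. The 7 windows ranged from 4 to 29 CG dinucleotides, with a median of 13, while the median over all 32851 RefSeq windows was 7. CCAAT was present in 3 of the 7 windows (Hoxa5, Hoxb8 and 1 window of Hoxa10) and in 37.4% of all windows. TATAAA was present in 2 of the 7, those of Hoxb8 and Hoxa10, and in 13.6% of all windows. Neither the E-box CACGTG nor TGATTNAT, a letter pattern that Pbx-Hox pairs can bind, was found in these windows on either strand, against 7.15% and 3.22% of all windows. The level of a gene and the letters in its window were not tested against each other.

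Counts on genes ranged from 9321123 to 13385850 per library, and 14004 genes passed a filter on low counts and were tested. Levels are given as CPM, the counts of a gene scaled to a fixed total of reads on genes with a correction for library composition (the TMM factors of edgeR), and as CPM per kb of merged exon length where genes are compared with one another. Rpl22 itself stood at 35.0, 43.9 and 41.5 CPM in Rpl22-/- HSCs and at 529, 562 and 523 CPM in Rpl22+/+ HSCs, a log2 fold change of -3.75 (SE 0.105) with a p of 2.97e-12 in edgeR's quasi-likelihood test, adjusted over the 14004 genes by the method of Benjamini and Hochberg. The identity of the cells was checked with markers. All 12 HSC markers on the list were detected well enough to be tested, among them Procr (50.3 to 56.8 CPM in Rpl22-/- and 52.2 to 59.1 CPM in Rpl22+/+ libraries), Mecom and Hlf, and their summed level was 2450 to 2710 CPM in Rpl22-/- and 2670 to 2750 CPM in Rpl22+/+ libraries. Of the 12, 1 was called lower in Rpl22-/- HSCs, Fgd5, against 2.29% of all genes tested. Mecom (133 to 143 against 155 to 157 CPM) and Hlf (437 to 477 against 493 to 542 CPM) were also lower in every Rpl22-/- library. These 3 of the 12 were without overlap between genotypes, against 26.9% of all genes. Fold changes were negative for 8 and positive for 4, and 4 had an unadjusted p under 0.05 in edgeR, against 22.3% of all genes. Those 4 did not share a direction: Fgd5, Mecom and Hlf were lower in Rpl22-/- HSCs and Slamf1 was higher. The log2 fold change of Slamf1 was 0.30, with an unadjusted p of 0.0245 and an adjusted p of 0.154 in edgeR.

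In HSCs of both genotypes the A cluster carried most of the Hox RNA. Its genes summed to a mean of 239 of 311 CPM in Rpl22-/- and 239 of 303 CPM in Rpl22+/+ HSCs. Over all 6 libraries, 22408 reads fell on the 39 Hox genes of the table, 77.8% of them on Hoxa genes, 21.7% on Hoxb genes and 0.415% on Hoxc genes, while the 9 Hoxd genes were at 0 reads in every library. The 10 genes held 85.1% of these reads, and Hoxa9 alone held 33.1%. These shares are of reads, so they favor genes with long exons.

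Per kb of exon, Hoxa9 had the highest mean level of the 10 genes in Rpl22+/+ HSCs, at 18.8 ± 0.419 CPM per kb (SD, n = 3 here and below). Hoxa7, a gene near it in the cluster that MLL fusions also activate, followed among the 10 at 15.9 ± 1.76 CPM per kb. Hoxa6, which is not among the 10, stood at 17.4 ± 4.71 CPM per kb and overlapped both, and in Rpl22-/- HSCs its mean of 21.9 CPM per kb was above theirs. The ranges of Hoxa9 and Hoxa7 did not overlap in Rpl22+/+ libraries, but in Rpl22-/- libraries, at 17.6 ± 2.34 and 17.5 ± 0.681 CPM per kb, they did. Hoxb4 came next at 9.88 ± 1.37 CPM per kb, with Hoxa5 at 9.70 ± 0.934 and Hoxa10 at 8.96 ± 0.642 CPM per kb, and these neighbors could not be ordered beyond their spread. With the longest transcript in place of merged exons, Hoxa10 took the third place. Hoxa9 has 5580 merged exon bases and 3226 in its longest transcript, Hoxa7 2876 and 2031, and Hoxa6 874 by either measure. Longest-transcript lengths would raise Hoxa9 and Hoxa7 relative to Hoxa6, and Hoxa9 relative to Hoxa7. The place of Hoxa6 and the overlap of Hoxa9 with Hoxa7 in Rpl22-/- libraries thus rest on merged exons.

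A gap in level separated these 5 genes from the rest of the B cluster. Hoxb3 stood at 3.45 ± 0.522, Hoxb2 at 2.90 ± 0.273 and Hoxb5 at 2.86 ± 0.419 CPM per kb in Rpl22+/+ HSCs, with overlapping ranges. Hoxb5, which marks long-term repopulating HSCs in mouse bone marrow, thus lay in the lower part of the order. Hoxb6 followed at 1.63 ± 0.0559 CPM per kb, below every Rpl22+/+ library of Hoxb5. Hoxb8 was lowest at 0.0529 ± 0.0117 CPM per kb, from 1 or 2 reads in each of these libraries.

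In Rpl22-/- HSCs the first 7 genes kept this order, and Hoxb6 (2.63 ± 0.875 CPM per kb) stood above Hoxb5 (2.23 ± 0.523 CPM per kb) in the means, although their ranges overlapped. The steps from Hoxa7 to Hoxb4, from Hoxa10 to Hoxb3 and down to Hoxb8 were again free of overlap.

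**Figure D1:**
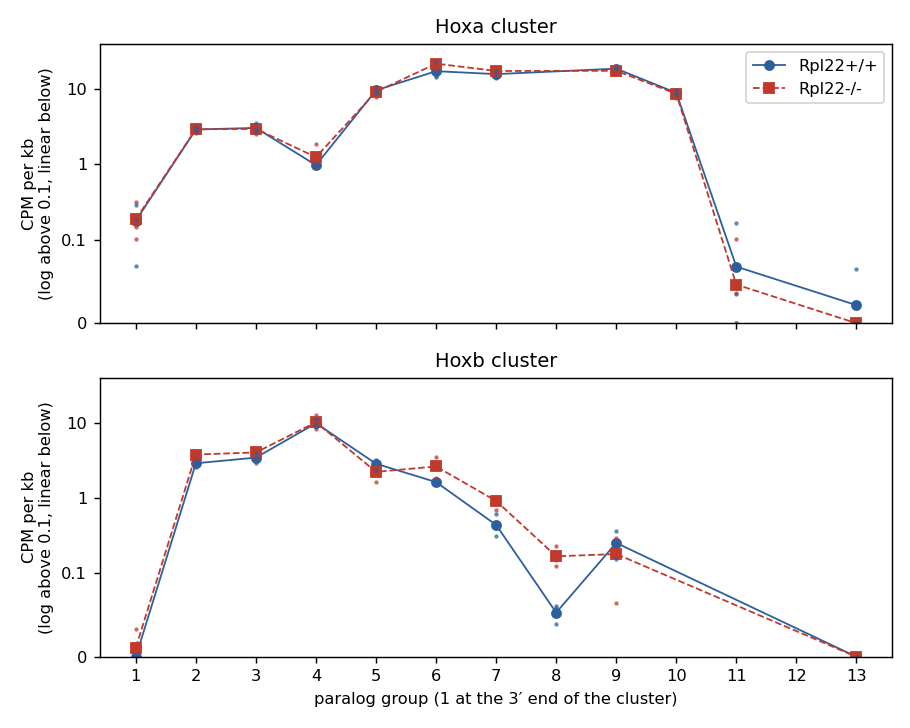
Mean level of each Hox gene of the A and B clusters in CPM per kb of exon (vertical axis, log above 0.1 and linear below) by paralog group (horizontal axis), for Rpl22+/+ (circles) and Rpl22-/- (squares) HSCs. Large symbols are means of 3 libraries and small dots are single libraries. The A cluster is high from Hoxa5 to Hoxa10 (8.96 to 18.8 CPM per kb in Rpl22+/+ HSCs), whereas the B cluster peaks at Hoxb4 (9.88 CPM per kb).

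The clusters differed in where along them the RNA lay. In paralog groups 5, 6, 7 and 9 the A gene was above the B gene in all 6 libraries. In Rpl22+/+ HSCs, Hoxa5 was 3.39 times as high per kb as Hoxb5, Hoxa6 10.7 times as high as Hoxb6, Hoxa7 36.2 times as high as Hoxb7 and Hoxa9 74.5 times as high as Hoxb9. Paralog group 4 was the reverse, with Hoxb4 10.1 times as high per kb as Hoxa4 and above it in all 6 libraries. In groups 2 and 3 the levels of the paralogs overlapped, at 2.92 CPM per kb for Hoxa2 and 2.90 for Hoxb2, and at 3.06 for Hoxa3 and 3.45 for Hoxb3. The overlap in group 3 rests on merged exons, which are 6014 bases for Hoxa3 and 4251 for Hoxb3. Their longest transcripts are 2591 and 3190 bases, which would raise Hoxa3 relative to Hoxb3. Beyond Hoxa10 the A cluster dropped to 0.0677 CPM per kb at Hoxa11, and Hoxb13, at the far end of the B cluster, was at 0 in every library.

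Between genotypes, none of the 9 genes that passed the filter differed at an adjusted p under 0.05 in edgeR's quasi-likelihood test, against 5.57% of all genes tested, of which 3.28% were higher and 2.29% lower in Rpl22-/- HSCs. DESeq2 and limma-voom also called 0 of the 9, against 7.54% and 5.3% of all genes. At an unadjusted p under 0.05, edgeR counted 2 of the 9, Hoxb2 and Hoxb6, against 22.3% of all genes tested (11.6% higher), a share near that background. The same 2 genes were those whose genotypes did not overlap, both higher in Rpl22-/- HSCs, against 26.9% of all genes without overlap, 13.3% higher and 13.6% lower. Fold changes were positive for 5 genes and negative for 4, while 48.7% of all genes had a positive one. Their median log2 fold change was 0.06, beside -0.01 over all genes tested, and was -0.05 over the 4 Hoxa genes and 0.23 over the 5 Hoxb genes. Hoxb8 did not pass the filter and is given separately. Since these are bulk libraries, fewer cells expressing a gene and less RNA per cell cannot be told apart.

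**Figure D2:**
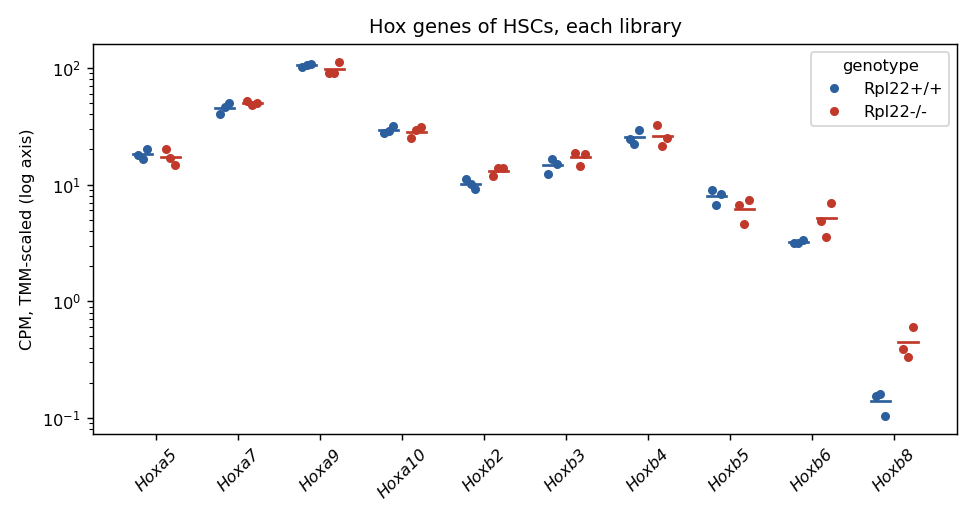
CPM of each of the 10 genes in each library (vertical axis, log scale), for Rpl22+/+ (blue) and Rpl22-/- (red) HSCs, with a horizontal line at each genotype's mean. The points of the genotypes intermingle for 7 genes, and only Hoxb2, Hoxb6 and Hoxb8 have every Rpl22-/- library above every Rpl22+/+ library.

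Among the Hoxa genes, Hoxa9, the cofactor-dependent driver of progenitor self-renewal, measured 91.3, 90.0 and 113 CPM in Rpl22-/- libraries 1, 2 and 3 and 102, 106 and 107 CPM in the Rpl22+/+ libraries. The Rpl22+/+ values lay close together, and Rpl22-/- values fell on both sides of them. The log2 fold change of Hoxa9 was -0.10 (SE 0.0961, 95% interval -0.30 to 0.11, edgeR adjusted p = 0.597), equal to a 0.935-fold level with an interval from 0.812 to 1.08. This was the smallest error of the 9 genes, from 7426 reads over the 6 libraries.

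Hoxa7 measured 52.4, 48.5 and 49.8 CPM in Rpl22-/- HSCs and 40.3, 46.6 and 50.4 CPM in Rpl22+/+ HSCs. Rpl22+/+ library 3 reached into the range of the Rpl22-/- libraries, and the other Rpl22+/+ libraries lay below it. Its log2 fold change was 0.14 (95% interval -0.08 to 0.36, edgeR adjusted p = 0.46).

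Hoxa10, an AbdB-type Hox gene that acts in early myeloid and megakaryocytic cells, measured 25.2, 29.1 and 31.1 CPM in Rpl22-/- libraries and 27.6, 28.7 and 31.6 CPM in Rpl22+/+ libraries. Hoxa5 measured 20.3, 17 and 14.7 CPM in the former and 17.9, 16.6 and 20.1 CPM in the latter. For both genes the genotypes overlapped over most of their range. Log2 fold changes were -0.04 for Hoxa10 (95% interval -0.30 to 0.22, edgeR adjusted p = 0.893) and -0.07 for Hoxa5 (-0.38 to 0.25, adjusted p = 0.839). Summed over the 4 Hoxa genes, levels were 194 ± 12.9 CPM in Rpl22-/- and 198 ± 10.2 CPM in Rpl22+/+ HSCs.

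Among the Hoxb genes, Hoxb4, whose overexpression expands HSCs, measured 32.3, 21.6 and 24.9 CPM in Rpl22-/- and 24.4, 22.4 and 29.2 CPM in Rpl22+/+ libraries. Rpl22-/- library 1 was the highest and library 2 of the same genotype the lowest of all 6. The log2 fold change of Hoxb4 was 0.06 (95% interval -0.27 to 0.38, edgeR adjusted p = 0.873), and its sign turned with the library left out.

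Hoxb3 measured 18.6, 14.5 and 18.4 CPM in Rpl22-/- and 12.3, 16.7 and 15.0 CPM in Rpl22+/+ libraries. A pair of Rpl22-/- libraries lay above all Rpl22+/+ libraries and the remaining one among them. The log2 fold change was 0.23 (95% interval -0.10 to 0.57, edgeR adjusted p = 0.42), and was 0.11 without Rpl22+/+ library 1. Hoxb2, the gene at the 3′ end of the B cluster's expressed stretch, measured 11.9, 13.9 and 13.8 CPM in Rpl22-/- and 11.1, 10.1 and 9.16 CPM in Rpl22+/+ libraries. Every Rpl22-/- library was above every Rpl22+/+ library, with the nearest values 11.9 and 11.1 CPM. The log2 fold change of Hoxb2 was 0.38 (SE 0.157, 95% interval 0.05 to 0.72), with an unadjusted p of 0.028 in edgeR's quasi-likelihood test and an adjusted p of 0.165.

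Counts of Hoxb2 and Hoxb3 may be affected by overlapping antisense RNA. Depending on the counting settings, reads on shared bases may be added to a gene or left uncounted. The levels per kb of these genes may therefore be too high or too low. Of the merged exon bases, 52.9% of Hoxb3 and 27.3% of Hoxb2 lie opposite exons of the noncoding RNA Hoxb3os, and the strand setting of the counting is not stated. Hoxb3os was itself listed at 38.9, 32.5 and 39.6 CPM in Rpl22-/- and 35.0, 35.0 and 34.9 CPM in Rpl22+/+ libraries, with a log2 fold change of 0.08 (edgeR adjusted p = 0.716). Hoxa7 shares 20.4% of its exon bases with the antisense RNA Hoxaas3 and Hoxb5 shares 3.6% with Hoxb5os, whereas the exons of Hoxa5, Hoxa10, Hoxb4, Hoxb6 and Hoxb8 have no such overlap. Hoxa9 shares 1.5% of its exon bases with the microRNA gene Mir196b on its own strand, a gene listed at 0.

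Hoxb5 measured 6.70, 4.58 and 7.37 CPM in Rpl22-/- and 8.91, 6.66 and 8.32 CPM in Rpl22+/+ libraries. Rpl22-/- library 2 was the lowest of the 6 and the genotypes overlapped. Its log2 fold change of -0.35 was the most negative of the 9 genes (95% interval -0.82 to 0.11, edgeR adjusted p = 0.367), and was -0.18 without Rpl22-/- library 2.

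Hoxb6, a gene of early myeloid and erythroid progenitors, measured 4.91, 3.58 and 6.99 CPM in Rpl22-/- and 3.15, 3.13 and 3.33 CPM in Rpl22+/+ libraries. The Rpl22+/+ libraries were nearly equal, with a coefficient of variation of 3.43%, and the Rpl22-/- libraries were spread above them, with one of 33.3%. The log2 fold change of Hoxb6 was 0.69 (SE 0.279, 95% interval 0.10 to 1.29), the largest of the 9, with an unadjusted p of 0.0249 in edgeR's quasi-likelihood test and an adjusted p of 0.155. It rested on 310 reads in all, and without Rpl22-/- library 3 it was 0.41 with an adjusted p of 0.476.

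Hoxb8, which holds myeloid progenitors immature when it is forced on, was at the edge of detection. Its counts were 5, 4 and 8 reads in Rpl22-/- and 2, 2 and 1 reads in Rpl22+/+ libraries. All Rpl22-/- counts were above all Rpl22+/+ counts, and the depth-scaled ratio of 17 to 5 reads was 3.14, with an exact 95% interval of 1.11 to 10.9 that covers counting error only. In edgeR without a filter on low counts, where the spread between libraries also enters, its log2 fold change was 1.59 (SE 1.08, 95% interval -0.53 to 3.70, adjusted p = 0.481). That fit called 6.89% of the genes it tested.

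**Figure D3:**
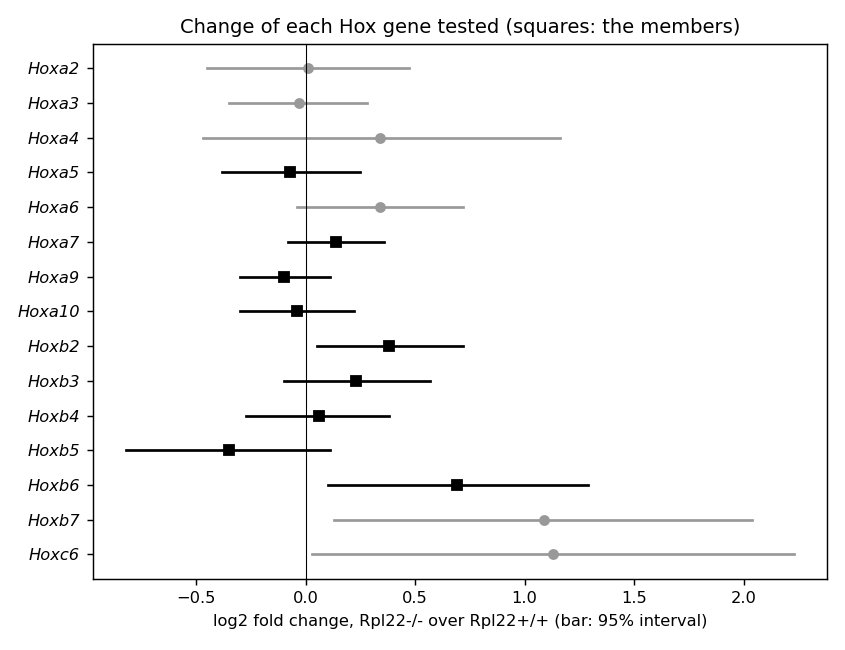
Log2 fold change of Rpl22-/- over Rpl22+/+ HSCs (horizontal axis) with its 95% interval (bars) for each Hox gene that passed the filter, in cluster order. Squares are genes of the set and circles other Hox genes. The intervals of Hoxb2, Hoxb6, Hoxb7 and Hoxc6 lie above 0, and no gene shown passed the adjusted threshold.

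Hoxb7, which lies between Hoxb6 and Hoxb8 and is not among the 10, had counts of 20, 13 and 21 in Rpl22-/- and 8, 6 and 9 in Rpl22+/+ libraries. Its genotypes did not overlap, and its log2 fold change was 1.09 (95% interval 0.13 to 2.04, edgeR adjusted p = 0.167). Hoxb6, Hoxb7 and Hoxb8, 3 neighbors on the chromosome, thus had every Rpl22-/- library above every Rpl22+/+ library, as did 13.3% of all genes tested, and none passed the adjusted threshold. Their summed level was 6.86, 4.99 and 9.19 CPM in Rpl22-/- and 3.92, 3.77 and 4.37 CPM in Rpl22+/+ libraries. The neighbors on either side did not share this: Hoxb5 was lower in its mean, and Hoxb9 had overlapping counts of 6, 2 and 10 in Rpl22-/- and 8, 5 and 9 in Rpl22+/+ libraries. This stretch was chosen after its values were seen, and no test was made of it.

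Of the 11 other Hoxa and Hoxb genes, 5 were tested and 0 passed in edgeR, DESeq2 or limma-voom. Of the 5, 1 (Hoxb7) had an unadjusted p under 0.05 in edgeR, against 22.3% of all genes. Log2 fold changes were 0.34 for Hoxa6 (20.2, 16.2 and 20.9 CPM in Rpl22-/- and 13.1, 12.6 and 20 CPM in Rpl22+/+ libraries, adjusted p = 0.274), 0.34 for Hoxa4, 0.01 for Hoxa2 and -0.03 for Hoxa3. The value for Hoxa4 came from Rpl22-/- library 2, at 3 CPM against 1.46 to 1.61 CPM in the other 5. Of the Hoxc genes only Hoxc6 was tested, with counts of 17, 10 and 14 in Rpl22-/- and 8, 3 and 6 in Rpl22+/+ libraries, a log2 fold change of 1.13 (95% interval 0.03 to 2.23) and an adjusted p of 0.211 by edgeR. Of 16 noncoding RNAs of the clusters found in the table, 5 were tested and 0 passed by edgeR, DESeq2 or limma-voom, with 0 at an unadjusted p under 0.05 in edgeR.

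The libraries themselves were not uniformly high or low in Hox RNA. The 10 genes summed to 264, 243 and 281 CPM in Rpl22-/- and to 248, 257 and 274 CPM in Rpl22+/+ libraries. These sums overlapped and averaged 263 ± 19.1 and 260 ± 12.9 CPM. Against the Rpl22+/+ mean, 7 of the 10 genes were above it in Rpl22-/- libraries 1 and 3 and 4 in library 2. Rpl22+/+ library 3 had 8 of the 10 above that mean, more than any Rpl22-/- library. The 6 Hoxb genes summed to 74.8, 58.4 and 72.1 CPM in Rpl22-/- and 60, 59.2 and 65.1 CPM in Rpl22+/+ libraries, so that Rpl22-/- library 2 lay below the Rpl22+/+ libraries and the others of its genotype above.

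The partners and regulators of Hox proteins were then examined. The TALE homeodomain cofactors, which bind DNA together with Hox proteins, gave 0 of 10 tested genes past the threshold in edgeR, DESeq2 and limma-voom. Over all genes these shares were 5.57%, 7.54% and 5.3%. At an unadjusted p under 0.05 edgeR counted 0 of the 10, against 22.3% of all genes. Their median log2 fold change was 0.02. Meis1 was at 460, 470 and 550 CPM in Rpl22-/- and 474, 486 and 433 CPM in Rpl22+/+ libraries, with a log2 fold change of 0.09 (95% interval -0.11 to 0.29, edgeR adjusted p = 0.637). Pbx3 gave -0.11 (edgeR adjusted p = 0.67). The genotypes overlapped for both cofactors.

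The MLL and Trithorax list holds factors known to keep Hox genes active, some of them by methylating or acetylating histones. Of 20 tested, 0 passed in edgeR, 1 in DESeq2 and 0 in limma-voom, against 5.57%, 7.54% and 5.3% of all genes. Of the 20, 2 had an unadjusted p under 0.05 in edgeR, against 22.3% of all genes. Their median log2 fold change was 0.01. Mll1, the older symbol of Kmt2a and the gene rearranged in MLL leukemia, gave -0.08 (edgeR adjusted p = 0.736), its scaffold Men1 0.10 (0.546) and the acetyltransferase Kat6a, listed as Myst3, -0.02 (0.908). The nearest to the threshold, Dpy30, a shared subunit of the MLL complexes, measured 62.0, 70.0 and 58.7 CPM in Rpl22-/- and 55.3, 48.1 and 40 CPM in Rpl22+/+ libraries. All Rpl22-/- libraries lay above all Rpl22+/+ libraries, as for 13.3% of all genes tested. The list had 5 of 20 genes without overlap in either direction, against 26.9% of all genes. The log2 fold change of Dpy30 was 0.41 (SE 0.116), with an adjusted p of 0.0513 by edgeR, 0.0286 by DESeq2 and 0.0562 by limma-voom. Dpy30 was named after its values were seen.

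Polycomb proteins silence Hox genes as cells mature. Of 30 tested, 0 passed in edgeR, 1 in DESeq2 and 0 in limma-voom, against 5.57%, 7.54% and 5.3% of all genes. In edgeR 7 had an unadjusted p under 0.05, against the background of 22.3%. Fold changes were negative for 16 and positive for 14, with a median log2 fold change of -0.07. Genotypes did not overlap for 9 of the 30, against 26.9% of all genes. The summed level of the list, which gives most weight to genes with high levels, was 2780 to 2890 CPM in Rpl22-/- libraries. In Rpl22+/+ libraries it was 2980 to 3000 CPM. Bmi1, a subunit that HSC self-renewal requires, measured 71.0, 72.4 and 70.5 CPM in Rpl22-/- and 81.7, 79.7 and 77.7 CPM in Rpl22+/+ libraries. These did not overlap, and the log2 fold change of -0.16 had an edgeR adjusted p of 0.257. Ezh2, a histone methyltransferase in a separate Polycomb complex from Bmi1, gave -0.10 (edgeR adjusted p = 0.529). Suz12, also named after its values were seen, gave -0.27 with an adjusted p of 0.0662 by edgeR and 0.0402 by DESeq2.

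Among 10 genes known as targets of Hoxa9 and Meis1, 1 rose and 0 fell in edgeR, against 3.28% and 2.29% of all genes tested, with a median log2 fold change of 0.08. Cdk6, a kinase that drives cells from quiescence into the cell cycle, measured 184, 183 and 191 CPM in Rpl22-/- and 123, 163 and 145 CPM in Rpl22+/+ libraries. The Rpl22-/- libraries were nearly equal and all higher, with a log2 fold change of 0.37 (SE 0.0982, 95% interval 0.16 to 0.58) and an adjusted p of 0.038 in edgeR's quasi-likelihood test. The call for Cdk6 held under 12 of 17 alternatives and was lost without Rpl22-/- library 2 or 3, without Rpl22+/+ library 1 or 3, and with scaling to library size alone, its log2 fold change staying between 0.27 and 0.50. Flt3, a receptor of multipotent progenitors, measured 39.1, 42.5 and 35.8 CPM in Rpl22-/- and 44.4, 56.0 and 50.4 CPM in Rpl22+/+ libraries. The genotypes did not overlap, and its log2 fold change of -0.36 had an edgeR adjusted p of 0.0675, which passed the threshold under 2 of 17 alternatives.

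**Figure D4:**
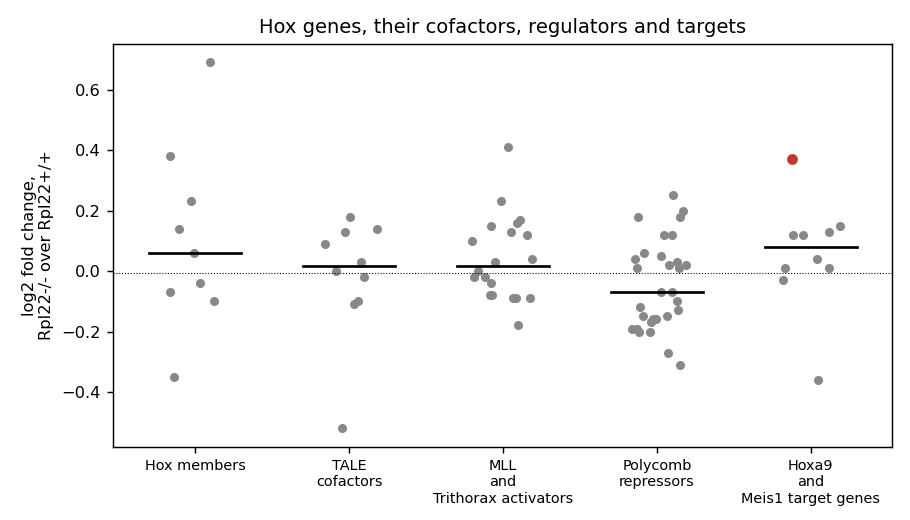
Log2 fold change of Rpl22-/- over Rpl22+/+ HSCs (vertical axis) for every tested gene of the Hox set and of 4 lists of cofactors, regulators and targets. Each point is a gene, horizontal bars are list medians, the dotted line is the median of all genes tested (-0.01) and red marks an edgeR adjusted p under 0.05. The single red point is Cdk6 at 0.37, and the list medians lie between -0.07 and 0.08.

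Genes listed as markers of other cell types also differed between the same libraries. Of 9 tested megakaryocyte markers, 8 were called higher in Rpl22-/- HSCs in edgeR, against 3.28% of all genes tested, while Gp6 was at 0. All 9 had an unadjusted p under 0.05 in edgeR, against 22.3% of all genes. The list summed to 1010 to 1190 CPM in Rpl22-/- against 669 to 873 CPM in Rpl22+/+ libraries. Granulocyte markers summed to 100 to 225 CPM against 66.9 to 106 CPM, with 2 of 9 called higher. Of these 9, 6 had an unadjusted p under 0.05 in edgeR and 8 had a positive fold change, with a median log2 fold change of 1.63. Monocyte and dendritic cell markers summed to 88.9 to 134 CPM against 50.6 to 84.6 CPM, with Siglech at 0. Of 5 tested, 1 was called higher and 3 had an unadjusted p under 0.05 in edgeR. Of the 6 tested erythroid markers 2 were called lower, against 2.29% of all genes tested, and 3 had an unadjusted p under 0.05 in edgeR. DESeq2 called 2 of them and limma-voom 1. Fold changes were positive for 3 erythroid markers and negative for 3, with a median log2 fold change of 0.06. That list summed to 39.3 to 44.6 CPM against 40.2 to 49.5 CPM. B cell, T and NK cell, stromal and endothelial markers gave 0 calls by edgeR, DESeq2 and limma-voom among 2, 4, 2 and 6 tested genes, with 1, 1, 0 and 2 at an unadjusted p under 0.05 in edgeR, and Igll1, Ms4a1 and Cd3e were at 0. In bulk libraries, marker RNA from other cells and marker RNA made by the HSCs themselves cannot be told apart. The part of any other cells in the levels of Hoxb2, Hoxb6, Hoxb7 and Hoxb8 was not tested.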

How the data were processed

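The authors deposited one table of raw counts per gene, made by checking reads with FastQC, aligning them to mm10 with TopHat2 (version 2.1.1 in the submitters' processing notes) and counting with HTSeq from polyA+ TruSeq libraries. The annotation and the strand setting are not given in the sources used here. Between 58.63% and 60.87% of each library was assigned to no gene and was left out. Of 34573 symbols, 30922 matched GENCODE annotation of GRCm38, 1880 of them through an older symbol.

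Counts were tested in edgeR 4.0.16 (R 4.3.3) with TMM factors, filterByExpr (minimum count 10) and the quasi-likelihood test, two-sided, with Benjamini-Hochberg adjustment over 14004 genes. DESeq2 1.42.0 and limma 3.58.1 (voom) were alternatives, beside other scalings and filters, length and GC trends, a replicate block and each library left out. The edgeR, DESeq2 and voom fits and the block were tested on simulated data. Intervals for ratios of reads cover counting error only.

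The members and lists were chosen with earlier results of these data known. Genes named were Rpl22, the members, every other Hox gene tested, up to 5 called genes of each list by smallest p, and Meis1, Pbx3, Kmt2a, Men1, Kat6a, Bmi1, Ezh2 and Flt3. Markers were named where a defining one was at 0 or a check turned on it, and other names were chosen after their values were seen. Protein sequences were not used here, and a few genes that this rule or the marker lists hold are not reported here. No pair of libraries of the same genotype agreed within sampling noise.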

Additional observations from a re-analysis of the deposited data

How the results depend on the processing

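None of the 9 tested Hox genes passed the adjusted threshold under any of the 17 alternatives. Of 153 values, 145 kept their sign and 8 turned it, and the lowest adjusted p was 0.0878, for Hoxb2 without Rpl22-/- replicate 1. The log2 fold changes that turned were those of Hoxa5 (0.04 without Rpl22-/- replicate 3, 0.01 without Rpl22+/+ replicate 3), Hoxa10 (0.05 without Rpl22-/- replicate 1, 0.02 without Rpl22+/+ replicate 3) and Hoxb4 (-0.12 without Rpl22-/- replicate 1, -0.03 without Rpl22+/+ replicate 2, -0.01 with the GC trend removed, -0.05 with length and GC trends removed and the replicate block). The cause was not tested. With a library left out, Hoxa5 ran from -0.19 to 0.04, Hoxa7 from 0.05 to 0.21, Hoxa9 from -0.21 to -0.04, Hoxa10 from -0.11 to 0.05, Hoxb3 from 0.11 to 0.34, Hoxb4 from -0.12 to 0.18 and Hoxb5 from -0.49 to -0.18. Over all alternatives Hoxb2 stayed between 0.32 and 0.45 and Hoxb6 between 0.41 and 0.90.

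The number of Hox genes at an unadjusted p under 0.05 was 1 with the GC trend removed, 1 with both trends removed and the replicate block, and 0 to 2 with a library left out (0 without Rpl22+/+ replicate 2). With the length trend removed, 1 was without overlap. The median of the Hox genes was -0.05 with both trends removed and the block, and -0.03 (without Rpl22+/+ replicate 2) to 0.16 with a library left out. The count of all genes called was 780, 1422 without a filter, 507 with the GC trend removed, and 127 (without Rpl22-/- replicate 3) to 1720 (without Rpl22-/- replicate 1) with a library left out. Scaling moved the median of all genes by at most 0.0442.

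Among MLL and Trithorax genes 1, Dpy30, was called with upper-quartile factors, with DESeq2, without a filter, with at least 10 counts in every library, with the replicate block and with the GC trend removed, and 0 to 1 with a library left out. Among Polycomb genes 1 (Suz12) was called with library size alone and with DESeq2, and 2 (Jarid2 and Aebp2) with both trends removed and the block. Hoxa9 and Meis1 targets gave 2 calls (Cdk6 and Flt3) without a filter, Flt3 alone with library size alone, and 0 to 1 with a library left out.

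Whether replicate numbers pair the libraries cannot be settled with 3 libraries per genotype. Deviations from the genotype means had correlations of -0.112, 0.0694 and 0.0489 in same-numbered libraries. Differently numbered libraries ran from -0.192 to 0.149. With the replicate block, 904 genes were called, and Hoxb2 and Hoxb6 gave 0.38 and 0.64, neither past the adjusted threshold. Depth limited Hoxb8 (22 reads in all) and Hoxb6 (310 reads) the most.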
